A study of Mus musculus with 14 samples.

Results

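SOX10 ChIP regions at the Trps1 locus of mouse chromosome 15 are described here. The members are the 37 of 7929 regions in a deposited list that overlap a window of 1.2 Mb in build mm9 (chr15:50300000-51500000). The window was named for the body of Trps1 and the sequence upstream of its start. Its regions were chosen by their position, with the density of this list around it and a run of 8 close regions already known. Position, width and signal of the members therefore come from the contrast that chose them, and they are given as a description without tests. The study used ChIPmentation, a chromatin immunoprecipitation in which a transposase adds the sequencing adapters to bead-bound chromatin. Cells of the PY230 mouse mammary tumor line were transplanted into syngeneic mice, and cells of the resulting tumors in adult C57BL6J hosts were used. The 2 SOX10 ChIP samples came from cells with AVI-tagged SOX10 and BirA, the ligase that biotinylates the tag. The 1 control sample came from control cells whose alleles are not given in the labels. The ChIP samples and the control were each made from 500000 cells on streptavidin beads, with added washes in 2% SDS. The labels do not say which promoter drove the tagged SOX10, how many clones it came from, or whether tumors were pooled. All members come from 1 list for both ChIP samples against the control, so the values carry no error between replicates, and the depth of the samples is unknown. A region list has no expression values against which the mammary identity of the tumors could be checked.

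TRPS1 is a zinc finger protein of the GATA type that represses transcription. It is known from tricho-rhino-phalangeal syndrome, which affects hair, face and skeleton, and as a marker of mammary epithelium and of breast carcinomas. SOX10 is an HMG-box factor of the SoxE group that acts in neural crest derivatives and is also found in mammary progenitor cells and basal-like breast tumors. Trps1 is transcribed towards lower chromosome coordinates, so that upstream sequence lies on its higher side. In the RefSeq gene table for GRCm38.p6 genes of other types stand between Trps1 and the next protein-coding gene on each side. On its higher side 6 genes of other types precede the first protein-coding gene, Eif3h, which encodes a subunit of a translation initiation factor. On its lower side 11 such genes precede Csmd3, which encodes a large membrane protein. The microRNA gene Mir1907 lies inside Trps1. That table is of another build than the list, so the start of Trps1 could not be placed among the regions, and the members are divided below by position rather than into body and upstream. Whether a given member lies in Trps1 was not tested.

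The Trps1 window held more SOX10 ChIP regions than any other window of the same length laid end to end from it along chromosome 15. Its 37 regions compared with a median of 4 (quartiles 1.25 and 8) in the other 82 windows, of which 16 held no region. The next windows held 33 regions (58.7 to 59.9 Mb), 29 (61.1 to 62.3 Mb), 21 (35.9 to 37.1 Mb), 20 (37.1 to 38.3 Mb) and 19 (25.1 to 26.3 Mb). The lead in number was small, at 1.12 times the next window. It shrank to 37 against 36 when the other windows were shifted by 0.6 Mb. The Trps1 window itself was kept in place there, and shifted windows overlapping it were left out. An edge shifted by 0.6 Mb would fall at its middle and part its members into 21 and 16. The first rank therefore holds for the edges given, which were chosen with the density known. The lead was larger in covered sequence, where the Trps1 window had 47.5 kb against 37.2 kb in the next window and a median of 3.23 kb. It was larger still in summed signal, the deposited signal of each region multiplied by its width and added up, at 1968 against 1122 in the next window and a median of 90.3. The window thus took in 6.94% of the regions of chromosome 15, 9.96% of their covered bases and 13.3% of their summed signal, on 1.16% of the length up to the last region. Among 1962 windows of 1.2 Mb over all autosomes it had rank 4 by number of regions, behind 3 windows of chromosome 11, and rank 2 by covered bases and by summed signal. By median signal it did not stand first: 4 of the other windows on chromosome 15 with at least 10 regions had a higher median. Without the runs of 5 or more regions described below, left out in every window, it held 23 regions and had rank 3 on chromosome 15.

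**Figure D1:**
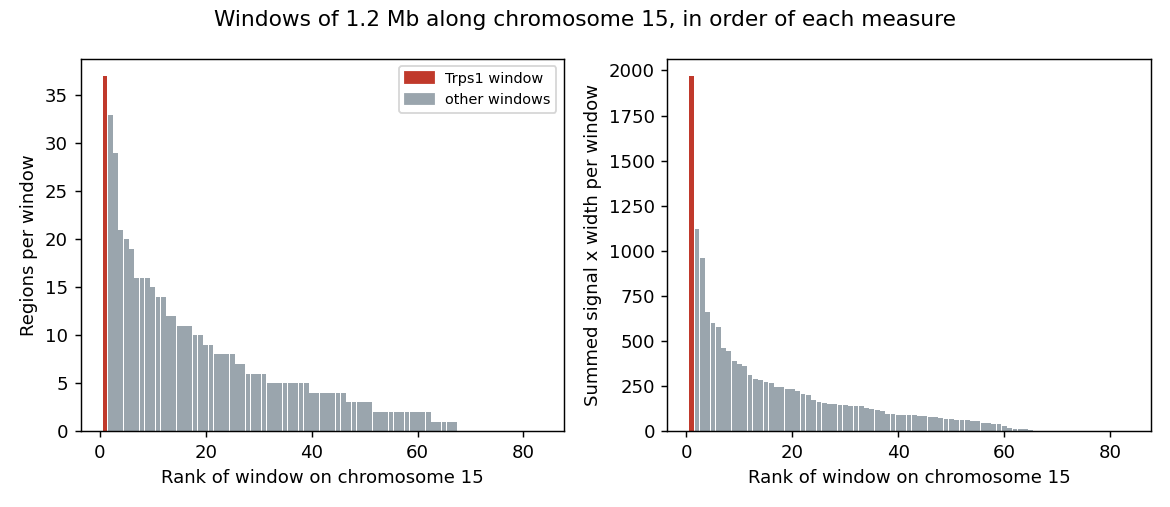
Windows of 1.2 Mb on chromosome 15 in order of their number of regions (left) and of their summed signal times width (right), 1 bar per window. The Trps1 window, in red, is first on both axes, with 37 regions against 33 in the next window and a summed signal of 1968 against 1122.

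The regions began abruptly from the lower side. The first member started 197 kb above the lower edge of the window, and the nearest region below it lay 3.13 Mb away. This gap had rank 2 by length among the 532 gaps between neighbouring regions on chromosome 15. The region on the far side of that gap (chr15:47371558-47371697) was only 140 bp wide and had a signal of 0.282, the highest of the chromosome. On the higher side the regions went on more evenly. The last member ended 75.3 kb inside the window, and the next region lay 37.2 kb outside it (chr15:51537163-51537931, 769 bp, signal 0.0307). The adjoining windows of 1.2 Mb held 0 regions below and 5 above.

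Gaps of more than 100 kb divided the members into 3 stretches. The lowest stretch held 4 regions over 70.9 kb, followed by an empty 133 kb. The middle stretch held 22 regions over 338 kb, from 50701397 to 51038903, and covered 34.6 kb. After a further gap of 111 kb, the upper stretch held 11 regions over 275 kb. Median signals of the stretches were 0.0364, 0.0338 and 0.0273 from the lowest to the highest, with overlapping quartiles (0.0310 to 0.0423, 0.0293 to 0.0513 and 0.0231 to 0.0383). In bins of 100 kb the number of members ranged from 0 to 14, and the bin from 400 to 500 kb above the lower edge held 14. Those 14 regions were 37.8% of the members and held 63.6% of the summed signal of the window.

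**Figure D2:**
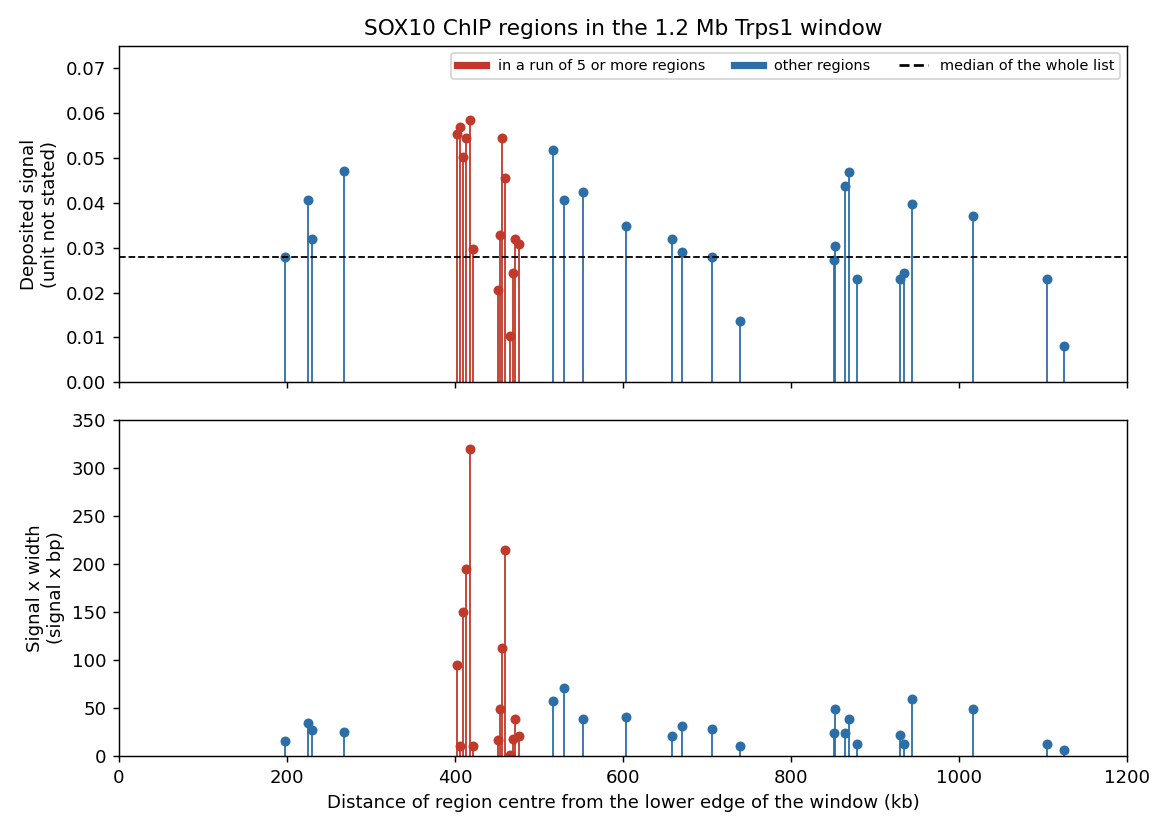
The 37 members by the distance of their centres from the lower edge of the window (kb), with their deposited signal above and signal times width below, and the median of the whole list (0.0280) as a dashed line. Red marks the 14 regions in the runs of 6 and 8, which hold the 6 highest values of signal times width.

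The same 14 regions made up 2 runs, and no other member lay in a run of 5 or more regions less than 10 kb apart. On the rest of chromosome 15, 23 of 496 regions (4.64%) lay in 4 such runs of at most 7 regions. The run of 8 was already known when the window was chosen, so this contrast follows from the choice. The run of 6 (chr15:50701397-50721043) spanned 19.6 kb, of which regions covered 72.8%. The run of 8 (chr15:50751050-50776836) began 30006 bp higher and spanned 25.8 kb with 45.9% covered. The run of 8 was therefore the larger by number and the run of 6 the larger by covered sequence, with 14.3 kb against 11.8 kb. Median signal was 0.0549 in the run of 6 (quartiles 0.0512 and 0.0565) and 0.0314 in the run of 8 (quartiles 0.0235 and 0.0361). Of the 6 regions, 5 were within the 10% of the whole list with the highest signal, against 1 of the 8.

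In the run of 6, signal stayed near one level over most of its length. The region at the lower end (50701397 to 50703120) had a width of 1724 bp and a signal of 0.0553. A narrow region followed (50705837 to 50706020), with 184 bp and a signal of 0.0570. The next 3 regions were wide and nearly touched. The lowest of these (50707683 to 50710666) had 2984 bp and a signal of 0.0501, and 400 bp beyond it came a region of 3575 bp with a signal of 0.0545 (50711067 to 50714641). Only 53 bp separated that region from the widest member (50714695 to 50720167), which had 5473 bp and a signal of 0.0584, the highest of all 37. The run closed with a weaker region of 365 bp and a signal of 0.0296 (50720679 to 50721043). The widest member was also the widest region of chromosome 15, with rank 3 of 7929 in the whole list. By signal times width it had rank 1 on the chromosome and rank 7 in the list, whereas by signal alone it had rank 6 and rank 314.

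The run of 8 was less even. Its lowest region (50751050 to 50751857) had 808 bp and a signal of 0.0207, below the list median of 0.0280. Signal was higher in the next 3 regions, which lay 55 and 59 bp apart. They had 1495 bp and 0.0329 (50752774 to 50754268), 2066 bp and 0.0545 (50754324 to 50756389), and 4713 bp and 0.0455 (50756449 to 50761161). The region of 4713 bp had rank 2 on chromosome 15 and rank 7 in the list by width. The remaining 4 regions were narrower and weaker. The lowest of them (50764750 to 50764892) had 143 bp and a signal of 0.0104. The other three had 727 bp and 0.0244 (50768743 to 50769469), 1208 bp and 0.0319 (50770626 to 50771833), and 671 bp and 0.0308 (50776166 to 50776836).

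**Figure D3:**
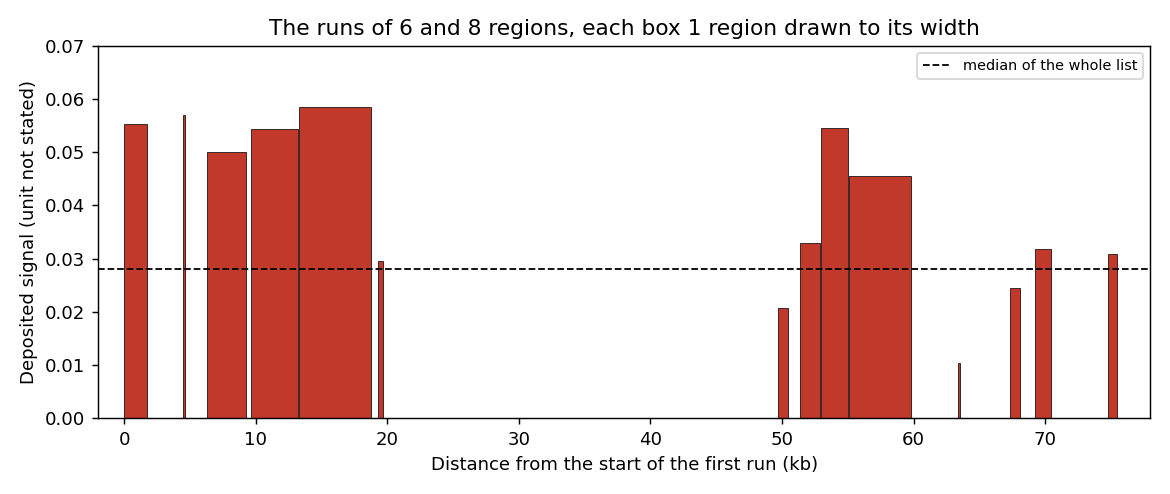
The runs of 6 (left) and 8 (right), with each region as a box drawn to its width in kb from the start of the run of 6 and to its deposited signal in height. The boxes of 2984, 3575 and 5473 bp on the left stand at 0.0501 to 0.0584, and the 4713 bp box on the right stands at 0.0455.

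Joining regions less than 1 kb apart gave 2 broad blocks in these runs. The block in the run of 6 took in 4 regions over 13.4 kb (chr15:50707683-50721043), of which 92.8% was covered. The block in the run of 8 took in 4 regions over 10.1 kb (chr15:50751050-50761161) with 89.8% covered. Among 7474 blocks and single regions of the whole list, these had ranks 2 and 4 by covered bases, with 12397 and 9082 bp. Ranks 1 and 3, with 22868 and 11418 bp, both lay on chromosome 4. By summed signal the blocks at Trps1 had ranks 4 and 9. The next on chromosome 15 was far smaller, with 3036 bp covered (chr15:59379158-59382623). The blocks at Trps1 together held 54.3% of the summed signal of the window. Whether regions separated by 53 to 59 bp are separate sites cannot be told from the list.

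Outside the runs the 23 remaining members were spread over the window. Their signals ranged from 0.00816 to 0.0517 with a median of 0.0320, and their widths from 531 to 1755 bp with a median of 853 bp. The 3 members just above the run of 8 were at the higher end of that range. They had signals of 0.0517 (50816381 to 50817494), 0.0407 (50828217 to 50829971) and 0.0424 (50852055 to 50852980). The next 5 members were lower with each step away, at 0.0347, 0.0321, 0.0291, 0.0279 and 0.0136 up to position 51038903. The 4 members of the lowest stretch had signals of 0.0280, 0.0407, 0.0320 and 0.0471, and all were under 1000 bp wide. In the upper stretch the strongest was a region of 825 bp with 0.0470 (51167801 to 51168625), followed by its neighbour of 558 bp with 0.0437 (51163179 to 51163736). The weakest member of all, with 0.00816, was also the last (51423916 to 51424672, 757 bp).

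Lower and upper parts of the window, parted at its middle (position 50900000), differed in number, width, spacing and signal, with ranges that overlapped. The lower part, which contains the runs, had 21 members with a median signal of 0.0407 (quartiles 0.0308 and 0.0517). The upper part had 16 with a median of 0.0285 (quartiles 0.0231 and 0.0353), or 0.700 times the lower. Of the lower members 17 were above the list median, against 8 of the upper, and the 10% of the list with the highest signal included 7 lower and 0 upper members. Without the runs the lower part kept 7 members and their median was again 0.0407. Among members under 1500 bp the medians were closer, at 0.0319 below and 0.0279 above. Median width was 926 bp below and 848 bp above. The lower part had 7 regions of 1500 bp or more and the upper part 1. Median gaps were 3.72 kb below and 19.6 kb above. These parts follow position only and do not stand for the body and the upstream sequence of Trps1.

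Against the rest of chromosome 15 taken as a whole, members were closer together, somewhat wider and somewhat stronger. Some single windows elsewhere on the chromosome had closer spacing, as given below. The median gap was 9.66 kb (quartiles 2.45 and 35.3) against 42.0 kb (quartiles 8.66 and 163), and 18 of 36 gaps (50%) were under 10 kb against 26.1%. Gaps under 1 kb made up 19.4% of the gaps between members and 5.67% of the others. Without the runs of 5 or more the median gap rose to 24.2 kb, against 48.1 kb elsewhere on the chromosome. Median width was 870 bp (quartiles 645 and 1495) against 729 bp (quartiles 500 and 1112), a ratio of 1.19. Median signal was 0.0321 (quartiles 0.0273 and 0.0455) against 0.0269 (quartiles 0.0205 and 0.0363), also a ratio of 1.19, and the quartile ranges overlapped widely. In all, 25 of 37 members (67.6%) were above the median of the whole list, where 46.0% of the other regions of the chromosome were. The highest member, at 0.0584, was 2.08 times that median and below the top 1% of the list, which began at 0.0972.

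The difference in signal was larger among wide regions. Among the 8 members of 1500 bp or more the median was 0.0523 (quartiles 0.0443 and 0.0547), compared with 0.0315 (quartiles 0.0253 and 0.0378) for the 60 such regions elsewhere on the chromosome. Of these 8, 6 lay in the runs. Under 1500 bp the medians were 0.0308 for 29 members and 0.0264 for 436 other regions. Signal and width went together more closely among members than elsewhere, with a Spearman rho of 0.485 and a Pearson r of 0.536 over 37 regions, against 0.240 and 0.106 over 496. In the 23 members outside the runs the values were 0.217 and 0.249. The r of 0.106 includes the region of 140 bp with a signal of 0.282, and was not recomputed without it. These correlations are across regions of 1 list, which share their libraries and are not independent. Of the 10 regions of chromosome 15 above 2500 bp, 4 were members. These 4 were the widest of the chromosome and lay in the runs. No region of chromosome 15 outside the window was wider than 2964 bp, against 2984 bp for the narrowest of the 4.

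**Figure D4:**
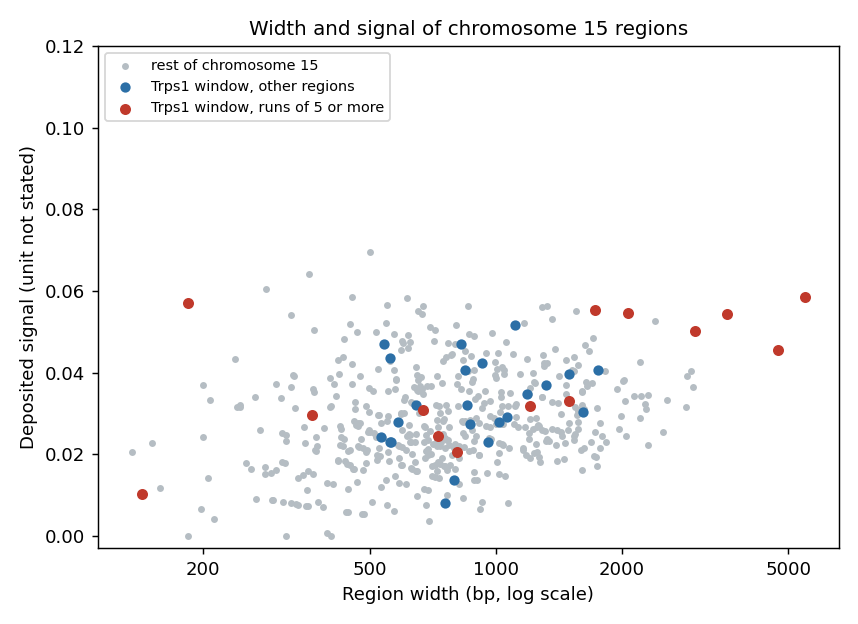
Width (bp, log scale) and deposited signal of the regions of chromosome 15, 1 point per region, with members in the runs in red, other members in blue and the rest in grey. 1 grey region with a signal of 0.282 lies above the axis. The 4 widest points are members, at signals of 0.0455 to 0.0584.

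The unit of the signal is not stated, and its values step. Signal times width was a whole multiple of 0.0479, within 0.05 of a step, in 99.8% of 7282 regions of the list under 1500 bp and above 0. For 39.2% of these the number of steps could be divided by 54, whereas the other divisors from 40 to 70 reached a median of 1.33%. Dividing by both gives read equivalents, a reading of the values and not reads counted by the authors. On this scale the median member had 11 and the median of the other regions of chromosome 15 was 8. The widest member had 124, the region of 4713 bp had 83.1, and the narrowest had 0.574. The widest member and the region of 4713 bp exceed the 1500 bp limit of the regions in which the step was found. Of the 37 members, 32 were whole multiples of the step within the same tolerance. Under 10 read equivalents were 17 of the 37 members and 60.9% of the other regions of the chromosome. The order of single weak members therefore rests on few read equivalents.

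The windows with the most regions after this one had no region wider than 2964 bp, and they resembled it in other ways. The closest in number depended on where windows began. With the other windows shifted by 0.6 Mb and the Trps1 window kept in place, the window from 36.5 to 37.7 Mb held 36 regions, against 37. Its median width of 872 bp and median signal of 0.0333 were close to the 870 bp and 0.0321 at Trps1, and its longest run held 7 regions. It covered 35.9 kb with a summed signal of 1147, against 47.5 kb and 1968, and its widest region had 2305 bp. Its median gap was 15.4 kb. Among windows laid end to end from Trps1, the 33 regions from 58.7 to 59.9 Mb had a median width of 1035 bp, a median gap of 11.2 kb and a median signal of 0.0294. The 29 from 61.1 to 62.3 Mb had 1008 bp, 21.3 kb and 0.0270. The widest regions of these windows had 2928 and 2964 bp, and their longest runs held 5 regions each. With runs counted once, there were 19 units at Trps1, 20 from 36.5 to 37.7 Mb, and 17 in each of the windows from 58.7 and 61.1 Mb. Close spacing was not particular to Trps1, where the median gap was 9662 bp. It was 8036 bp from 37.1 to 38.3 Mb (20 regions), 5242 bp from 97.1 to 98.3 Mb (14 regions) and 9199 bp from 73.1 to 74.3 Mb (12 regions). The remaining windows laid end to end with at least 10 regions had larger median gaps.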

How the data were processed

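The authors deposited 1 list of regions for both PY230 SOX10 ChIP samples against the control, with a signal value per region that is never below 0. Per the submitters' processing notes, the tools were MACS2 2.1.1, Bowtie 0.12.8, FastQC and SAMtools 1.3.1, with build mm9; the notes give no role or order. How regions were called, how duplicates were handled and how the signal was computed and scaled is not given in the sources used here. The other groups of the series were not analysed here.

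Starts were written 1-based. Members overlap the window by at least 1 base. Runs join regions with gaps under 10 kb and blocks join those with gaps under 1 kb. Windows were whole windows of 1.2 Mb between the first and last region of a chromosome, which left 8 regions of chromosome 15 outside. Scripts in Python 3.11.15 with pandas 2.3.3 were tested on simulated data. Members, and the window, were chosen with earlier results of these data known. All members and the 5 fullest other windows are covered by position, and genes are named by their order around Trps1 only. Coordinates were not converted between builds, so the planned split at the start of Trps1 was replaced by the middle of the window. Limits of 100 kb for stretches and 1 kb for blocks were set after seeing the list. With 1 pooled list there are no replicates, and no test was made.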

Additional observations from a re-analysis of the deposited data

How the results depend on the processing

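No paired analysis was possible because both ChIP samples share 1 list without sample numbers, which also leaves no replicate to drop. With runs counted once the window held 19 units instead of 37 regions, since counting a run once lowers the number by construction. Placing windows every 0.1 Mb or shifted by 0.6 Mb moved only the other windows, without those overlapping the Trps1 window, which kept its 37 regions. The best other window then held 36 regions. Whether Trps1 stays first at other edges was not tested. The Trps1 window was also first by number with runs counted once in windows laid end to end from it, and in the stronger 50% of the list (25 against 18). With the other windows shifted and runs counted once it had rank 2, with 19 units against 20. Without the runs of 5 or more regions it had rank 3, with 23 regions against up to 28. By median signal, only 77.8% of the 18 other windows with 10 or more regions were below it. The ratio of median signal to other regions ranged from 1.12 to 1.19 over 5 alternatives, including 1.14 against the rest of the whole list. For width it was 1.18 to chromosome 15 without the runs and 1.28 to the rest of the whole list. The ratio of gaps to the rest of chromosome 15 ranged from 0.247 to 0.504 over 2. Upper over lower signal ranged from 0.700 to 0.874 over 3. The longest run held 8 regions at gap limits of 5 and 20 kb. The alternatives without runs, with shifted windows and runs counted once, by median signal, under 1500 bp for the parts, and the count among the 50% with the highest signal were chosen after seeing the data. The unknown depth limits the ranking of single members.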
